A study of Mus musculus with 3 samples.

Results

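Off-locus intervals found only after subtraction are stretches of the mouse genome that the authors' subtracted NBS1 list of the AH2 line contained although the AH2 NBS1 list itself had no peak there. They were chosen by the measured peaks: an interval of the subtracted list was taken if it shared no base with any AH2 NBS1 peak and lay on a placed autosome, with a start of at least 5 Mb, outside 6 antigen receptor windows. This gave 431 intervals of the 1489 in the list. NBS1 chromatin immunoprecipitation and sequencing (ChIP-seq) was done in AH2 and R2K.Artm, both mouse lines of pre-B cells that v-Abl, an oncogenic tyrosine kinase, had transformed. From AH2 an input library was also made without antibody. The labels state no genotype (it is given as N/A), no treatment and no time for either line, and the 3 groups (NBS1 in AH2, NBS1 in R2K.Artm, input of AH2) hold 1 library each. The study's title concerns DNA breaks made by RAG1/2 outside immunoglobulin loci, near single sequence repeats, and intervals away from the antigen receptor genes are the part of the list that bears on it.

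NBS1 is the subunit of the MRE11-RAD50-NBS1 complex that brings the kinase ATM to DNA double-strand breaks. In developing lymphocytes RAG1/2, the recombinase of the antigen receptor genes, makes such breaks next to recombination signal sequences, and NBS1 is known to gather around RAG breaks in those loci. Peak callers such as MACS slide along the chromosome and report a stretch where reads of one library exceed what a background model or a control library gives, so the same reads can yield different peaks under a different control. No sequence of build mm9 was used here, so repeats, recombination signals and genes at these intervals were not analysed here, and intervals are named by position alone.

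With 1 library per group no value has a replicate error, and no test between groups or between sets of intervals was run. Intervals of 1 library are not replicates of a condition. The 95% Wilson intervals given with shares, and the 95% intervals of medians from order statistics, cover counting error only and treat intervals as independent. How deeply the libraries were sequenced is unknown. The nearest relatives of the 431 are the 802 intervals of the subtracted list that passed the same position filters and did overlap an AH2 NBS1 peak (kept intervals). All 802 kept intervals had the same start and end as an AH2 NBS1 peak. No interval of the off-locus list overlapped an AH2 NBS1 peak only in part.

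Of the 1489 intervals, 567 overlapped no AH2 NBS1 peak. Of these, 30 were on unplaced sequence, 9 on chromosomes X, Y or M, 11 started below 5 Mb and 86 lay in an antigen receptor window, which left the 431. They made up 35% of the 1233 off-locus intervals, a share that the rule itself sets. Together they covered 53491 bp, against 98122 bp for the kept intervals. Over the 2361 Mb considered, this was 18.3 intervals per 100 Mb, and 34.0 per 100 Mb for the kept ones.

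At the edge of the rule, the 3 members nearest to an AH2 NBS1 peak lay 100, 144 and 368 bp away. The closest was on chromosome 7 at 100234712 to 100234826, with a score of 53.6 in the subtracted list, and its neighbour was an AH2 NBS1 peak at 100234927 to 100235107 that was itself retained in the subtracted list. The second was on chromosome 14 at 35594238 to 35594345 (score 55.7), beside an AH2 NBS1 peak at 35594490 to 35594692 that was also retained. The third was on chromosome 13 at 60544248 to 60544404 (score 56.1), beside an AH2 NBS1 peak at 60543724 to 60543879 that the subtracted list did not retain. The first pair thus stands in the subtracted list as adjacent intervals, only one of which the list before subtraction had. On the other side of the rule no interval was borderline, as every kept interval was a complete AH2 NBS1 peak. The 3 smallest overlaps were therefore only the narrowest kept intervals, of 50, 51 and 52 bp. Chromosome 11 had the first, at 103044903 to 103044952 with a score of 66.2. The second was at 80464345 to 80464395 of chromosome 5 (55.1), and the remaining one at 112505470 to 112505521 of chromosome 1 (103.2).

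The intervals found only after subtraction had low scores. The score is the authors' value from the peak caller, and no list holds a value under 50. The members ranged from 50.01 to 85.7 with a median of 52.2 (95% interval 51.9 to 52.4), and the middle 50% lay between 50.9 and 54.4. The kept intervals had a median of 57.5 (56.8 to 58.4), a 75th percentile of 62.9 and a maximum of 1295. The intervals of these medians did not overlap. The AH2 NBS1 list has the same lowest score, so a low score and absence from that list are not independent, and the difference is given as a description.

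**Figure D1:**
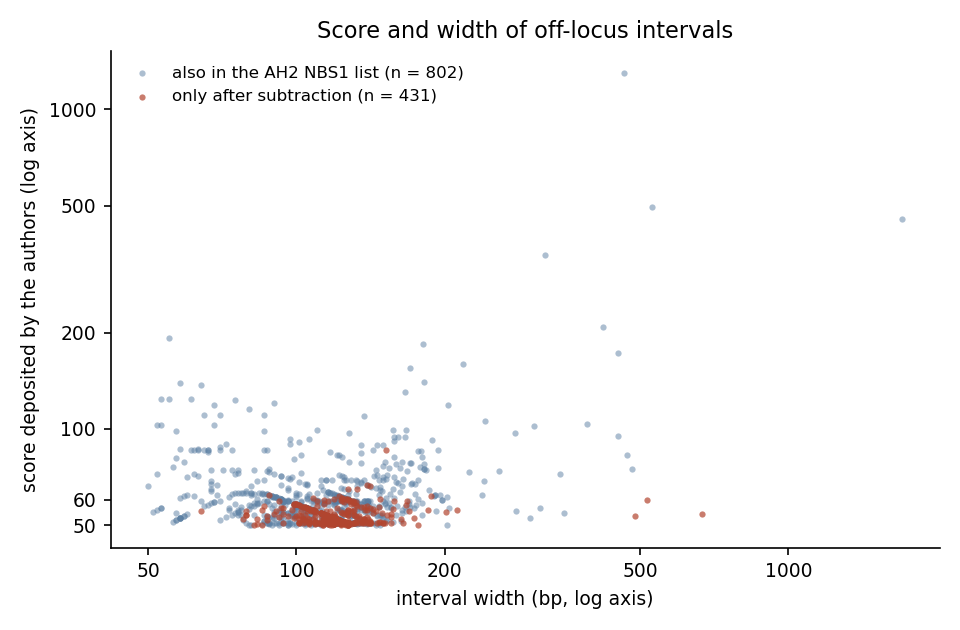
Score deposited by the authors (y, log axis) against interval width in bp (x, log axis) for each off-locus interval of the subtracted list; red points are the 431 intervals found only after subtraction and blue points the 802 also in the AH2 NBS1 list. The red points lie in a band between 50.01 and 85.7 and mostly between 100 and 150 bp, while the blue points reach a score of 1295 and a width of 1702 bp.

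Most members stood within a few units of the lowest score. Of the 431, 333 scored below 55, 77.3% (73.1 to 81.0%), against 296 of 802 kept intervals, 36.9% (33.6 to 40.3%). At a score of 60 or more there were 20 members, 4.64% (3.02 to 7.06%), where 25.1% of all off-locus intervals reached that score. Only 3 members reached 65, and none reached 100, which 32 kept intervals did. For 0 of 431, the limit that a count of 0 allows is 0.696%.

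Read by score class, the share of off-locus intervals that had no AH2 NBS1 peak was 48.3% (42.1 to 54.6%) at scores from 50 to under 51, 66.2% (57.8 to 73.7%) from 51 to under 52 and 57.6% (47.7 to 66.8%) from 52 to under 53. It was 45.8% from 53 to under 54, 45.9% from 54 to under 55, 36.2% from 55 to under 57 and 18.8% from 57 to under 60. Above that it was 13.6% (8.67 to 20.7%) from 60 to under 65 and 1.97% (0.673 to 5.64%) from 65 to under 100. The share was therefore not highest in the lowest class, and from 51 upwards it fell or stayed level in each class up to 100.

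**Figure D2:**
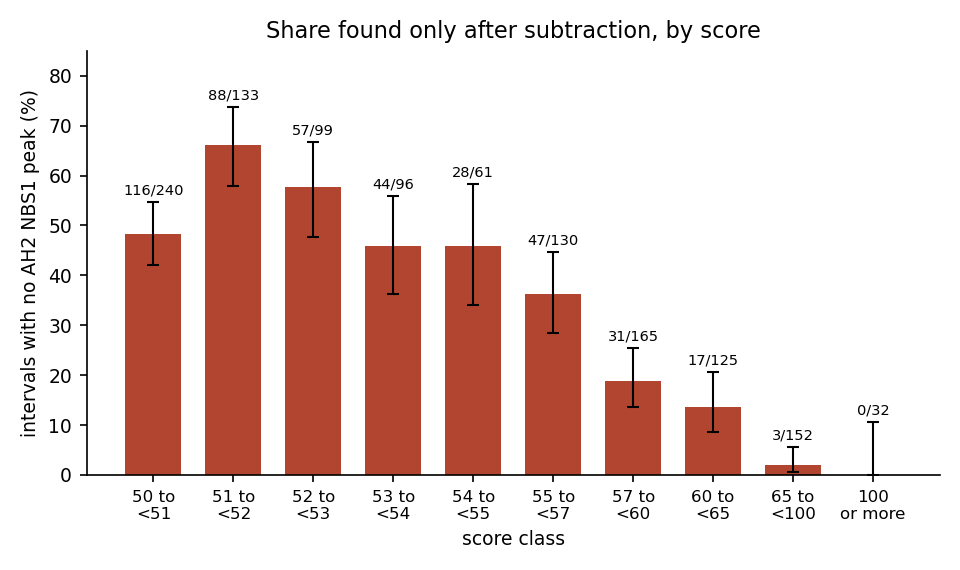
Share of off-locus intervals with no AH2 NBS1 peak (y, percent) in 10 classes of the deposited score (x); bars give the share, whiskers its 95% Wilson interval, and the numbers above them the intervals found only after subtraction over all intervals of the class. The share was 66.2% at scores from 51 to under 52 and 1.97% from 65 to under 100.

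Many members had exactly equal scores. The 431 took 201 distinct values, and 37 of them, 8.58%, had the score 50.73, on 16 chromosomes and with widths of 101 to 165 bp (median 124 bp). The same value was also the commonest among the kept intervals, with 90 of 802. Those 90 account for most of the 124 kept intervals in the lowest class. Of the next commonest values among members, 50.85 was the score of 15 members and 2 kept intervals, and 51.1 of 15 and 2. The value 51.6 was that of 14 and 3, and 51.85 that of 12 and 8. These values were picked by their count among members, and no such ranking was made for the kept intervals. No cause of the repeated values was tested.

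In width the members were uniform. The median was 122 bp (95% interval 120 to 123 bp), with the middle 50% between 113 and 127 bp, and the commonest single width was 127 bp, in 28 members. The kept intervals had a median of 116 bp (upper bound of the 95% interval 119 bp) and a middle 50% of 95.2 to 132 bp. Widths from 110 to under 130 bp were found in 270 members, 62.6% (58.0 to 67.1%), and in 30.8% (27.7 to 34.1%) of kept intervals. Both flanks were thinner among members: 28 members, 6.50% (4.53 to 9.23%), were under 100 bp wide against 29.3% (26.3 to 32.5%) of kept intervals, and 24 members, 5.57%, were at least 150 bp wide against 112 of 802 kept intervals. Among intervals scoring below 60, the 411 members still had a median of 121 bp (120 to 123 bp) with a middle 50% of 113 to 127 bp, and the 513 kept intervals had 116 bp (113 to 119 bp) and 100 to 127 bp. The narrower spread of widths was thus present when the high scores of the kept intervals were left out.

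The 10 highest-scoring members lay on 9 chromosomes. The highest was on chromosome 7 at 10597312 to 10597463, 152 bp wide, with a score of 85.7, which ranked 109 among the 1489 intervals of the subtracted list. The nearest AH2 NBS1 peak was 211107 bp away and the nearest input peak 3944 bp away. The next was on chromosome 16 at 24502230 to 24502368 (score 66.9, rank 247), with AH2 NBS1, R2K.Artm NBS1 and input peaks all about equally far, at 125169, 125106 and 125137 bp. The third was on chromosome 1 at 156679142 to 156679282 (66.2, rank 256). Beyond the first, the 10 were close together in score, and the tenth had 61.0.

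The fourth, on chromosome 4 at 91999588 to 91999714 (64.8), had a peak of each of the other lists close by, at 1982 bp for AH2 NBS1, 1965 bp for R2K.Artm NBS1 and 1981 bp for input. It was the only member with a peak of all 3 lists within 10 kb. The fifth, on chromosome 13 at 112745908 to 112746040 (64.7), again had the 3 lists at nearly one distance, 102166, 102153 and 102209 bp. The sixth began at 44792626 of chromosome 17 and was 88 bp wide (62.2). After it came the member at 70064181 of chromosome 11 (122 bp, 61.7) and that at 5049452 of chromosome 14 (188 bp, 61.5). The last of the 10 were at 152327822 of chromosome 2 and 90631503 of chromosome 7, both 124 bp wide with a score of 61.0. None of the 10 overlapped an input peak. The nearest approach was that of the interval on chromosome 14, with 993 bp to an input peak.

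The 5 widest members were not the highest in score. The widest began at 6035339 of chromosome 14 and spanned 667 bp with a score of 54.1. The second, at 6032575 of the same chromosome, spanned 515 bp (60.02), and 2249 bp lay between them. The others were at 47702615 of chromosome 6 (488 bp, 53.3), 90134810 of chromosome 1 (212 bp, 56.0) and 6752365 of chromosome 14 (201 bp, 54.9). Of the 5, the second and that on chromosome 6 overlapped an input peak, and the widest was 786 bp from one.

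Few members coincided with input, the regions that gained reads without the antibody. An AH2 input peak overlapped 8 of the 431, 1.86% (0.943 to 3.62%), where 5.43% of all off-locus intervals did so and 59 of 802 kept intervals, 7.36% (5.75 to 9.37%). Among intervals with scores below 60, it was 7 of 411 members, 1.70% (0.827 to 3.47%), and 25 of 513 kept intervals, 4.87% (3.32 to 7.09%). At this score limit the intervals of the shares overlapped slightly, from 3.32 to 3.47%. For comparison, 25.2% (23.9 to 26.5%) of the 4331 off-locus AH2 NBS1 peaks before subtraction overlapped input. The file title of the list names input as subtracted and its header does not, and the part of this step in the low share was not tested.

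The 8 overlaps ranged from partial to complete. The member on chromosome 15 at 12802834 to 12802991 (score 59.7) lay wholly within an input peak of 558 bp with an input score of 354.84, and that on chromosome 14 at 35594238 to 35594345 (55.7) wholly within one of 621 bp with a score of 464.53. Of all input peaks, 2.46% and 1.70% scored higher than these. The member on chromosome 6 at 47702615 to 47703102 (53.3) was likewise inside an input peak, of 616 bp. The covered part was 91.0% for the member starting at 73187625 of chromosome 6, 84.8% for that at 47954051 of chromosome 19 and 82.6% for that at 100234712 of chromosome 7. It was 25.2% at 99468432 of chromosome 9 and 23.9% at 6032575 of chromosome 14. All 8 thus had scores from 50.5 to 60.02, and the strength of the input peak beneath them varied widely.

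No member overlapped an R2K.Artm NBS1 peak: 0 of 431, for which the upper limit is again 0.696% (3 counts of the total). Among all off-locus intervals, the members included, the share was 0.649%. In kept intervals it was 8 of 802, 0.998% (0.506 to 1.96%). The members' limit of 0.696% was below the kept share of 0.998% but above the lower bound of its interval, 0.506%. A difference between the sets was therefore not resolved. Both the file title and the header name R2K.Artm NBS1 as subtracted. Before this step, the share with such an overlap was 30.5% (29.1 to 31.9%) in the 4331 off-locus intervals of the AH2 list. The part of the subtraction in the low shares of members and kept intervals was not tested. A single member was within 1 kb of an R2K.Artm NBS1 peak, and 7 were within 10 kb, 1.62% (0.789 to 3.31%), against 37 kept intervals, 4.61% (3.37 to 6.29%). The median gap to an R2K.Artm NBS1 peak was 322 kb for members and 321 kb for kept intervals.

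The members' nearness to AH2 NBS1 peaks was like that of 2 other peak sets that overlapped none of them. Within 1 kb of one were 5 members, within 10 kb 23, 5.34% (3.58 to 7.88%), and within 100 kb 133, 30.9% (26.7 to 35.4%). The median gap was 208 kb, and the middle 50% lay between 79.3 and 404 kb. Other sets without an AH2 NBS1 peak gave similar shares under the same filters. Of the 1325 R2K.Artm NBS1 peaks that overlapped no AH2 NBS1 peak, 6.72% (5.49 to 8.19%) were within 10 kb of one and 32.3% within 100 kb. Of the 9407 such input peaks, 4.76% (4.35 to 5.21%) were within 10 kb and 30.1% within 100 kb. The interval of the members' share at 10 kb included both of these values.

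The 23 members within 10 kb had 22 distinct AH2 NBS1 peaks as their nearest. For 11 of the 23, 47.8% (lower bound of the 95% interval 29.2%), that peak was retained in the subtracted list, where 18.5% of the 4331 off-locus AH2 NBS1 peaks were. Of the 23 neighbouring peaks, counted once for each member, 5 coincided with a peak of R2K.Artm NBS1, 21.7% (9.66 to 41.9%), and 4 with an input peak, 17.4% (6.98 to 37.1%). Among all off-locus AH2 NBS1 peaks these shares were 30.5% and 25.2%, inside the intervals of the 23. No peak of any of the 3 lists lay within 10 kb of 353 of the 431 members, 81.9%. There were 65 members with a peak of 1 list, 12 of 2 lists and 1 of all 3. This count was not made for another set, so it is not shown to be particular to the members. Taken singly, an R2K.Artm NBS1 peak was within 10 kb of 1.62% of members and 4.61% of kept intervals. For input peaks these shares were 14.4% and 17.5%.

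**Figure D3:**
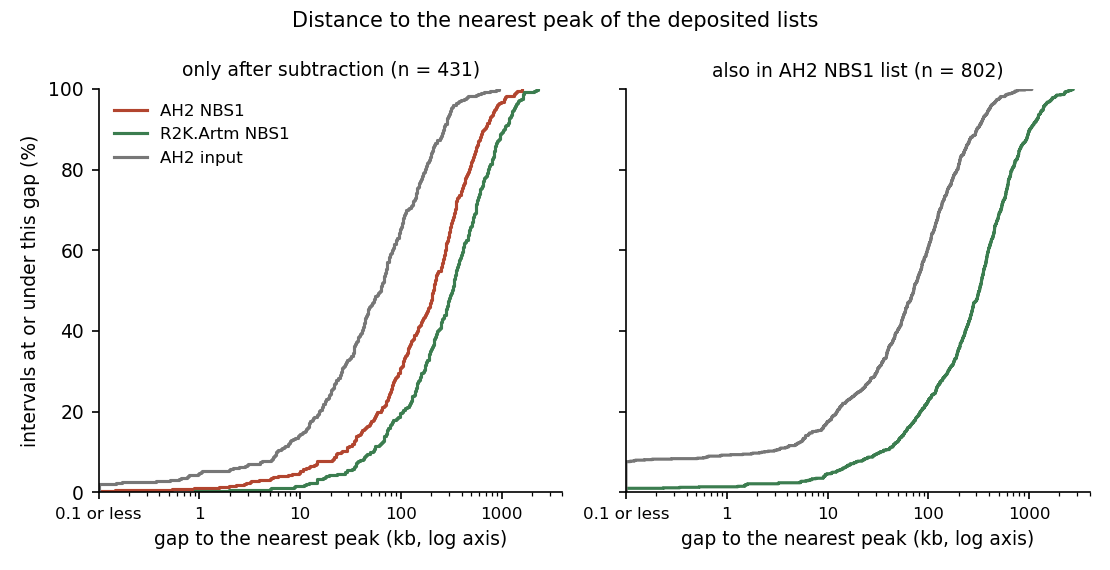
Cumulative share of intervals (y, percent) by the gap to the nearest AH2 NBS1 (red), R2K.Artm NBS1 (green) or AH2 input (grey) peak (x, kb, log axis; gaps of 0.1 kb or less and overlaps are drawn at 0.1), for the 431 intervals found only after subtraction (left) and the 802 kept intervals (right). The members' median gaps are 208, 322 and 62.6 kb. The grey curve of the members starts lower than that of the kept intervals, where each start includes gaps of 0.1 kb or less. Overlaps alone were 1.86% of members and 7.36% of kept intervals.

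Input peaks, the longest of the lists, were at least as near as those of either NBS1 list for 303 of the 431 members, 70.3%. Off-locus, input had 10489 peaks, AH2 NBS1 4331 and R2K.Artm NBS1 2628. The share was not computed for another set, so it is not shown to be particular to the members. The median gap to an input peak was 62.6 kb for members and 71.7 kb for kept intervals. Within 10 kb of an input peak were 62 members, 14.4% (11.4 to 18.0%), and 140 kept intervals, 17.5%. Within 100 kb the order was the other way, with 65.7% (61.1 to 70.0%) of members and 61.0% (57.6 to 64.3%) of kept intervals, and the intervals of the shares overlapped at both distances.

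Most members stood alone at the scale of 10 kb. Another member lay within 10 kb for 14 of the 431, 3.25% (1.94 to 5.38%), and the corresponding share among kept intervals was 3.24% (2.22 to 4.71%), at a density of 0.183 members and 0.34 kept intervals per Mb. Equal shares at unequal densities do not show an equal spread. Within 100 kb of another of the same set were 14.2% (11.2 to 17.8%) of members and 10.5% (8.54 to 12.8%) of kept intervals. The 14 formed 7 pairs, and no run of 3 or more was found. The closest pair was on chromosome 7 at 9178151 to 9178647, with 242 bp between intervals scoring 50.2 and 59.7. Chromosome 7 had 2 more, starting at 129531332 and 10040637. The remaining pairs began at 12802325 of chromosome 15, 157182465 of chromosome 2, 112164517 of chromosome 13 and 6032575 of chromosome 14. The gaps of these 6 pairs were from 297 to 2249 bp. Joining each pair would leave 424 separate stretches. A kept interval was within 10 kb of 11 members, 2.55% (1.43 to 4.51%).

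Inside the antigen receptor windows, intervals with no AH2 NBS1 peak had higher scores, were wider and lay closer together than the members. These 86 intervals had a median score of 61.6 (95% interval 57.2 to 65.2) and a maximum of 178, with 45 of them, 52.3% (41.9 to 62.6%), scoring at least 60. Their median width was 164 bp (141 to 187 bp). In 70 of the 86, 81.4% (71.9 to 88.2%), another of the same set was within 10 kb. The values of the off-locus members were 52.2, 122 bp and 3.25%. The 95% intervals treat the 86 as independent, which intervals lying so close together are not. They are therefore too narrow to judge the contrast, which is given as a description. The closeness was not set against the density of intervals in the windows. Of the 86, 81 were in the immunoglobulin heavy chain window on chromosome 12, so this contrast is mainly with 1 locus. An input peak overlapped 5 of the 86, 5.81% (2.51 to 12.9%), and 1.86% of members (0.943 to 3.62%).

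Every autosome held members. The counts ran from 11 on chromosome 19 to 43 on chromosome 2, which is 2.55% and 9.98% (7.49 to 13.2%) of the set. Chromosome 7 held 38, 8.82% (6.49 to 11.9%), against 5.99% (4.54 to 7.85%) of kept intervals and 6.37% (5.92 to 6.85%) of off-locus input peaks. Per Mb the densest were chromosome 17 with 0.288, chromosome 7 with 0.258 and chromosome 14 with 0.256, and the thinnest was chromosome 4 with 0.133. On every autosome the intervals of the members' and the kept intervals' shares overlapped. With 19 chromosomes and 431 intervals, differences of this size between chromosomes were not resolved.

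**Figure D4:**
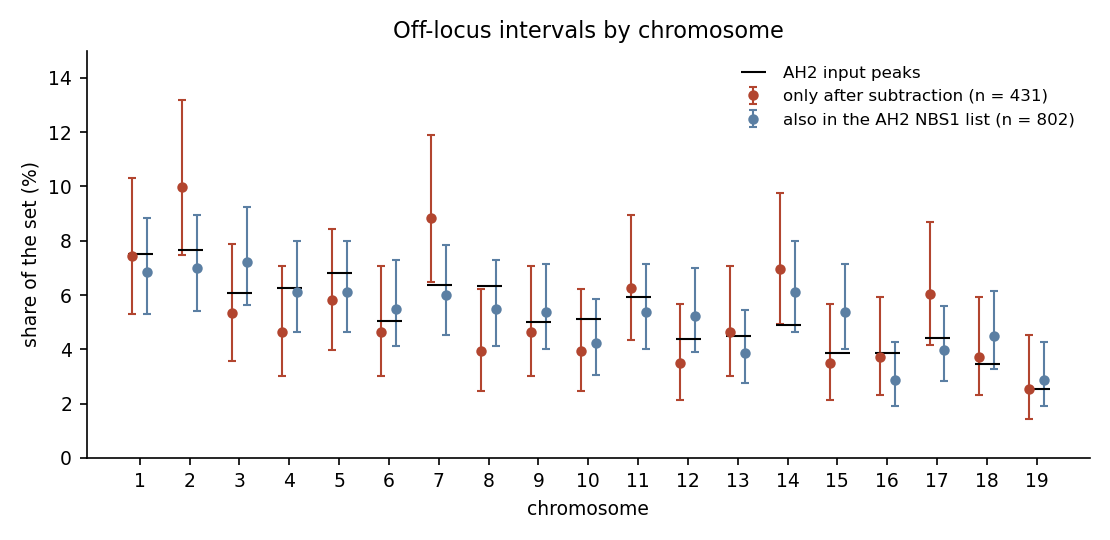
Share of each set (y, percent) by autosome (x), for the 431 intervals found only after subtraction (red) and the 802 kept intervals (blue), with 95% Wilson intervals as whiskers; black dashes give the share of off-locus AH2 input peaks. Chromosome 2 (9.98%) and chromosome 7 (8.82%) hold the most red intervals, and red and blue whiskers overlap on every chromosome.

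Within chromosomes, the members were denser near the first bases considered. Mouse autosomes are telocentric, so this end is the one next to the centromere. Starts from 5 to under 10 Mb were found in 36 members, 8.35% (6.09 to 11.3%), against 32 of 802 kept intervals, 3.99% (2.84 to 5.58%). The 95% intervals of these shares did not overlap. In the other lists, under the same filters, the share was 4.02% (3.47 to 4.64%) for AH2 NBS1, 4.41% (3.69 to 5.27%) for R2K.Artm NBS1 and 5.32% (4.91 to 5.77%) for input.

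The share was lower without chromosomes 7 and 14. They were picked because many members were seen near their starts, so a fall follows from the choice. Without both, the share was 4.41% (2.73 to 7.04%) for members and 3.55% (2.41 to 5.18%) for kept intervals, and the intervals overlapped. They also overlapped without chromosome 14 alone, at 5.74% (3.85 to 8.46%) and 3.45% (2.37 to 5.01%), and without chromosome 7 alone, at 7.38% (5.19 to 10.4%) and 4.11% (2.91 to 5.78%). As they overlapped in each case, the overlaps do not show on which chromosome the difference rests. On chromosome 14, 13 of the 30 members started between 5 and 10 Mb, 3.02% of all members, where 6 kept intervals did (0.748%) and 0.648% of input peaks. On chromosome 7, 12 of the 38 members started between 5 and 12 Mb, 2.78% of all members, with 1 kept interval there (0.125%) and 0.515% of input peaks. This stretch is longer than the 5 to 10 Mb used above, and its members starting from 10 Mb on are not among the 36. Leaving out chromosome 7 took the 36 to 29. These stretches were chosen after their counts were seen. The 13 on chromosome 14 had scores from 51.3 to 61.5 (median 54.9) and widths from 64 to 667 bp (median 147 bp), and the 12 on chromosome 7 had scores from 50.2 to 85.7 (median 53.6) and widths from 79 to 152 bp (median 116 bp). The highest-scoring member, which starts beyond 10 Mb, and both of the widest are among these 25.

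By bins of 1 Mb, the fullest was from 6 to 7 Mb of chromosome 14, with 6 members. That bin had no AH2 NBS1 peak, no R2K.Artm NBS1 peak and no kept interval, but 15 input peaks. The members there were at 6032575, 6035339, 6385184, 6580771, 6674067 and 6752365, and their gaps to an AH2 NBS1 peak ran from 348 to 749 kb. In this bin the list before subtraction was thus empty over the whole megabase. The next was from 10 to 11 Mb of chromosome 7, with 5 members, 2 AH2 NBS1, 2 R2K.Artm NBS1 and 6 input peaks and no kept interval. The third, from 7 to 8 Mb of chromosome 7, had 4 members beside 2, 2 and 10 peaks of those lists and no kept interval. Its members were at 7308822, 7322755, 7335003 and 7470916, of which the first was 0.783 kb from an input peak and the others 14.7, 21.2 and 22.9 kb.

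Another 8 bins had 3 members each: from 9 Mb of chromosome 7, 5 Mb of chromosome 14, 44 Mb of chromosome 11, 112 Mb of chromosome 13, 27 and 44 Mb of chromosome 17, 145 Mb of chromosome 3 and 46 Mb of chromosome 9. The bin from 5 Mb of chromosome 14 had 21 input peaks, the most of the 11. The off-locus input list averaged between 3.84 and 5.32 peaks per Mb on single chromosomes, and the 15 and 21 of chromosome 14 were above this. The part of input in the density of members there was not tested. In all, 302 of the 431 members were alone in their bin, 70.1%, and the 11 bins with 3 or more held 39, 9.05%. For kept intervals, which were denser (0.34 against 0.183 per Mb), 70.9% were alone and 8.85% were in bins of 3 or more.

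**Figure D5:**
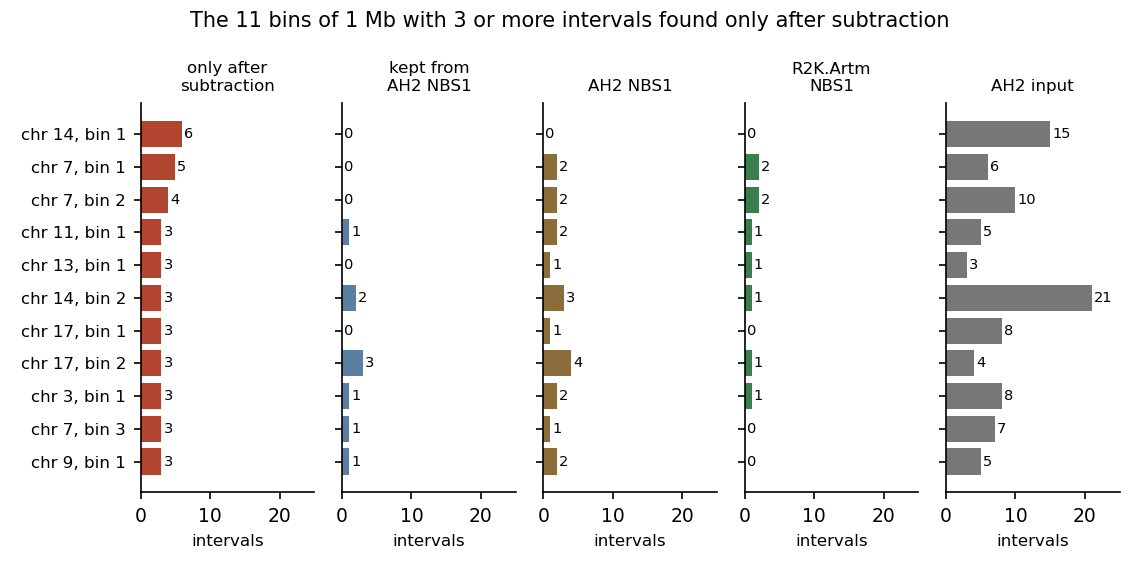
Number of intervals (x) in the 11 bins of 1 Mb that held 3 or more intervals found only after subtraction, in 5 panels for these intervals, the kept intervals, and the peaks of the input list and both NBS1 lists; bins are named by chromosome and numbered in order of count and position. The top bin, on chromosome 14, has 6 intervals found only after subtraction, 0 AH2 NBS1 and R2K.Artm NBS1 peaks and 15 input peaks.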

How the data were processed

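The 4 peak lists analysed here hold 1 interval per line. Each carries a deposited score that the authors' software assigned, never under 50, which the headers do not define. Tools named in the submitters' processing notes are Bowtie and MACS 1.4.2, with build mm9. Which controls the calls had is not stated there. Per the file headers, R2K.Artm NBS1 was subtracted from AH2 NBS1, and the file title adds input. How this was done is not stated. Depth is unknown, so peak numbers were not compared as amounts of binding.

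Intervals were joined in Python 3.11.15 (numpy 2.4.6, pandas 2.3.3, scipy 1.17.1). An overlap of 1 base counted as shared, and a gap is the number of bases between intervals. Antigen receptor windows, in Mb of mm9, were chromosome 12 at 114 to 118, 6 at 67 to 71 and 40 to 42, 16 at 19 to 20, 14 at 52 to 55 and 13 at 19 to 20. Positions are 1-based. On simulated data the join found 500 of 500 planted overlaps among 1500 intervals. Regions named were the 10 highest scores, the 5 widest, members overlapping input and runs of 3 or more. The 3 members nearest to an AH2 NBS1 peak and the 3 kept intervals with the smallest overlap were also named. The score and width classes, the comparison below a score of 60, the comparison with antigen receptor windows, the pairs, the dense stretches and the fullest bins were chosen after their values were seen. The members and lists were chosen with earlier results of these data known. The gene table at hand is of another build and was not used.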

Additional observations from a re-analysis of the deposited data

How the results depend on the processing

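No paired analysis was possible because the groups share no replicates, with 1 library each, and leaving 1 out would empty a group. For 9 results, 50 alternative values were computed, of which 40 stayed within the 95% interval of the reported value (for the number of members, within 1.5 times). Many of the 40 could hardly move, so their number is no measure of robustness. Widening the windows by 500 kb left the same 431 members, and an R2K.Artm overlap of 0 stays 0 in any subset. Starts of at least 10 Mb left 395 of the 431, and other settings left 426, 424 or 423. The 10 values that moved follow from stricter or wider limits. With a score of at least 60, 20 members were left, with a median score of 61.0, a median width of 126 bp, 5.0% overlapping input (1 of 20) and 0% near another member. Counting input peaks within 1 kb as shared gave 4.87% (21 of 431). With 100 kb in place of 10 kb, 30.9% were near an AH2 NBS1 peak and 14.2% near another member. Members at most 10 kb apart counted as 1 leave 0% near another, by construction. With starts of at least 10 Mb, chromosome 14 held 4.30% of members against 6.96%. Leaving out members that overlap input, and both alternatives for chromosomes 7 and 14, were added after seeing the data. Simple sequence repeats were not run, as they need the mm9 sequence. A stretch with no peak in a list is not shown to lack NBS1.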
